A study of Mus musculus with 10 samples.

Results

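Progesterone-induced implantation and response genes were examined in the uterus of HSD17B1TG and wild-type (WT) mice, as a group of 10 genes listed by symbol because they are known targets or partners of the progesterone receptor in mouse endometrium. The symbols were Fkbp5, Fkbp4, Zbtb16, Calca, Cyp26a1, Hdc, Gata2, Tsc22d3, Hand1 and Errfi1. Of these, 9 were among the 29268 genes of the table and 8 passed the filter on low counts, which left 16993 genes to test. Calca was under that filter, and Hand1 was not analysed here. The HSD17B1TG females, on the FVB/N strain, are heterozygous for a transgene of the human HSD17B1 enzyme. Its promoter (chicken beta actin with a CMV enhancer) works in most tissues, so expression is not limited to the uterus. The enzyme converts estrone to the more active estradiol. RNA of the whole uterus was sequenced from 5 HSD17B1TG and 5 WT females aged 4 months, 1 library per mouse, named here TG1 to TG5 and WT1 to WT5. The transgenic line is acyclic per the methods, whose section on histology adds that sampling of WT uteri was not timed to a phase of the estrous cycle. Genotype and phase cannot be told apart in these values, and the phase of each WT mouse is not given in the sources used here.

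Progesterone from the ovary acts in the uterus through its nuclear receptor, PGR, in epithelium and stroma, and prepares the tissue for the embryo to implant. Unbound PGR is held in a complex with the chaperone HSP90 and with co-chaperones such as FKBP4 and FKBP5. FKBP4 promotes hormone binding and is needed for uterine receptivity, and FKBP5 is both a target of steroid receptors and a brake on several of them. Among the targets, Zbtb16 and Tsc22d3 also answer to glucocorticoids, whose receptor recognises the same DNA element. Calca encodes calcitonin and the peptide CGRP, Cyp26a1 clears retinoic acid, Hdc makes histamine, Gata2 encodes a transcription factor upstream of PGR action, and Errfi1 restrains the EGF receptor.

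Promoters of 8 of the genes were found in RefSeq (assembly GRCm38.p6), 12 promoters in all because some genes have several starts, each running from 250 bases before the start to 50 bases after it. They were searched on both strands for AGAACA, whose other strand reads TGTTCT, the half-site shared by PGR and the glucocorticoid receptor. It was found in 2 of the 12 promoters, against 19% of all 32851 promoters (6233). The full palindrome, made of both half-sites around a spacer of 3 bases, was searched only in a looser form. Some bases of each half-site were left free in it. That form was in 0 of the 12 and in 0.475% of all promoters (156), which need not hold an exact half-site. The sequences shown are those of Fkbp5 and Hdc, the genes that passed every threshold, and of the Tsc22d3 promoter that holds a half-site. Capitals mark the half-site. In Hdc it starts at position -137 and in Tsc22d3 at -185 from the start of transcription, and the Fkbp5 window has no match. That window lies inside the gene as annotated for the counts, which starts at 28517527 on the minus strand. The region at that start was not searched. The Fkbp5 promoter is chr17:28486100-28486399, the Hdc promoter chr2:126618629-126618928 and the Tsc22d3 promoter chrX:140600473-140600772, all on the minus strand and written along the gene.
Fkbp5: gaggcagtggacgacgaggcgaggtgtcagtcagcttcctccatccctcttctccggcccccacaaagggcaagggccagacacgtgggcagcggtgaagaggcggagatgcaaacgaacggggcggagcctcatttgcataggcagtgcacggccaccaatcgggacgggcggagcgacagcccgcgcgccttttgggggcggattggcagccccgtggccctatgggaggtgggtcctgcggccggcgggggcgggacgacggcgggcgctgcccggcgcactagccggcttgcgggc
Hdc: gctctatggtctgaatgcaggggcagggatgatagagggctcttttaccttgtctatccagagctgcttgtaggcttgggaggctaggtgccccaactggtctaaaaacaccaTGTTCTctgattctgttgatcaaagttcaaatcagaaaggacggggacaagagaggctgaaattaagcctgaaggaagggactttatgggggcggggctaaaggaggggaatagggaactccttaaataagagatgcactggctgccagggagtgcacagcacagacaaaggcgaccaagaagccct
Tsc22d3: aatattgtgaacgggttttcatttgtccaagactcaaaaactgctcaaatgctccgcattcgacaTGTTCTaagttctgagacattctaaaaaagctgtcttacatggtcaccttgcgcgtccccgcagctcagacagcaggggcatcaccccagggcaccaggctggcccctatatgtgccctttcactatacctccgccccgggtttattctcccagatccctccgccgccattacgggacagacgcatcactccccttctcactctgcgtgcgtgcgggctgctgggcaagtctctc

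Expression of 2 of the 8 tested genes fell in the HSD17B1TG uterus, Fkbp5 to about 0.319 and Hdc to about 0.0884 of the WT level. Both passed the thresholds of an adjusted p-value under 0.05 in edgeR, a fold change over 2 and a mean over 1 FPKM (a level scaled by gene length and library size) in either genotype. Of all genes tested, 2.08% passed these thresholds as lower and 2.16% as higher, and none of the 8 passed as higher in edgeR, DESeq2 or voom or had a log2 fold change above 0. An adjusted p-value under 0.05 at any fold was reached by the same 2 of 8 genes and by 6.16% of all genes. At an unadjusted p-value under 0.05, 5 of the 8 were lower (Fkbp5, Hdc, Cyp26a1, Zbtb16 and Tsc22d3), against 11.4% of all genes. All 8 had a log2 fold change below 0, as did 49.8% of all genes, and their median was -1.33 against 0.00 for all genes. The mean FPKM was lower in HSD17B1TG for 9 of 9 genes. Because whole uterus was sequenced, fewer cells of a type and less RNA per cell cannot be told apart in any of these values. Leaving out 1 mouse moved the count of genes past the thresholds between 0 and 3. It was 0 without TG2, TG4 or TG5, 1 (Fkbp5) without WT1, WT2, WT3 or WT5, and 3 without WT4, when Cyp26a1 was added. The share of all genes with an adjusted p-value under 0.05 moved in the same fits, from 6.16% with all mice. It was 0.740% without TG2, 0.988% without TG4, 0.439% without TG5 and 13.8% without WT4. Without WT1, WT2, WT3 or WT5 it was 1.73%, 0.628%, 0.939% and 0.684%.

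**Figure D1:**
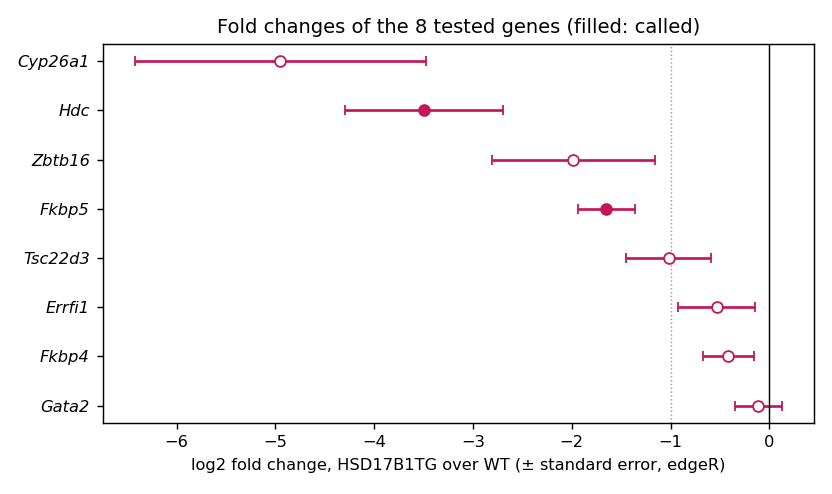
Log2 fold change of each tested gene, HSD17B1TG over WT (x axis, edgeR), with bars for the standard error; filled points are the genes that passed all thresholds, the solid line marks no change and the dotted line a 2-fold decrease. All 8 points lie below 0, from -0.11 for Gata2 to -4.95 for Cyp26a1, and only Fkbp5 and Hdc are filled.

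The genes differed widely in level. In WT, Fkbp4 was highest with a mean of 130 FPKM, followed by Errfi1 with 65.5, Gata2 with 37.0, Tsc22d3 with 21.3 and Hdc with 16.1. Below these came Zbtb16 with 5.24, Cyp26a1 with 4.77, Fkbp5 with 3.41 and Calca with 3.20. The WT ranges of neighbours in this order overlapped, for Fkbp4 and Errfi1 only through WT5, where Errfi1 reached 114 FPKM. In HSD17B1TG the order was Fkbp4, Errfi1, Gata2 and Tsc22d3 again, and each of the other 5 genes had a mean under 1.5 FPKM.

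**Figure D2:**
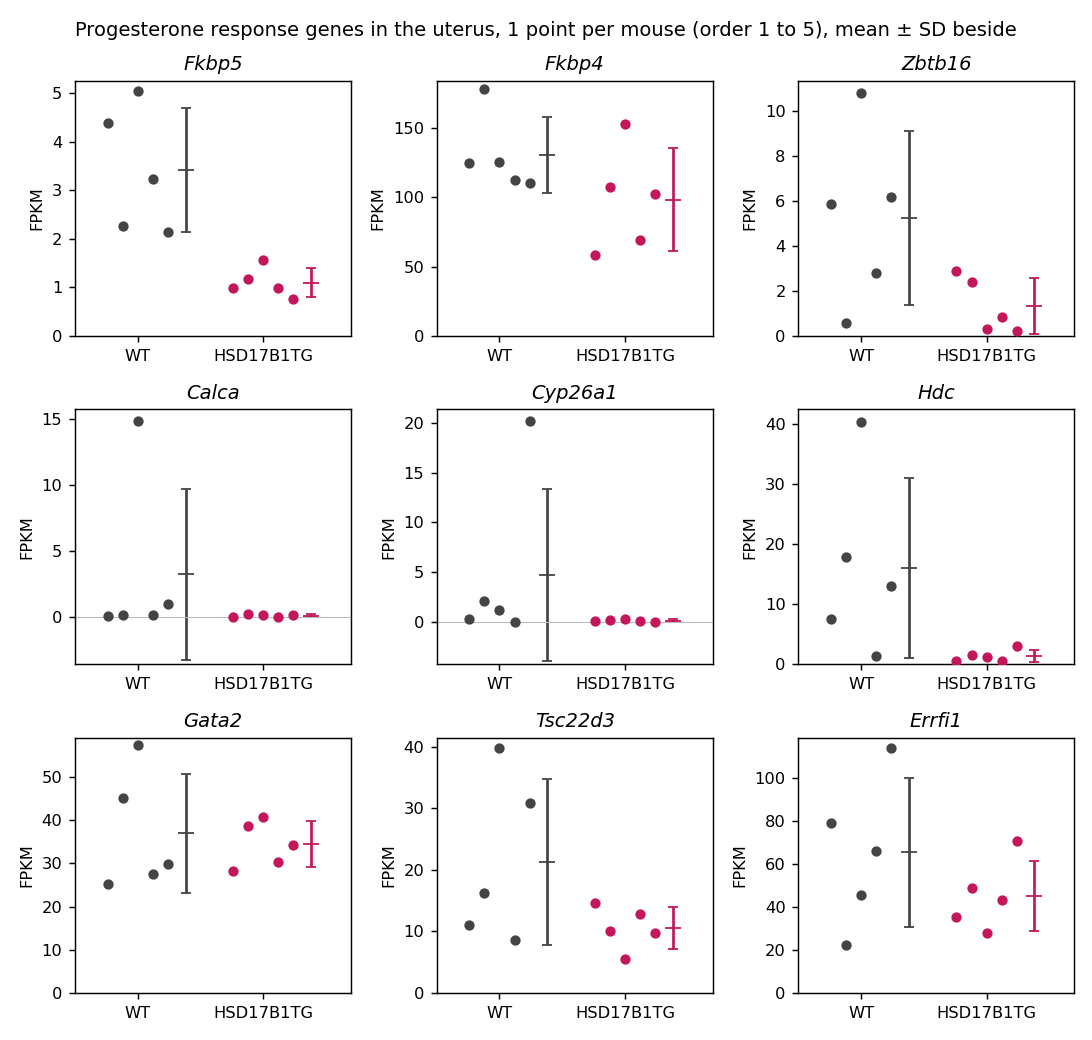
FPKM of each gene (y axis, linear) in every mouse, drawn from mouse 1 to mouse 5 within each genotype, with the mean ± SD (n = 5) beside the points; the SD bars of Calca and Cyp26a1 in WT reach below 0. The genotypes are separate for Fkbp5 only, and 1 WT mouse stands above the rest for Calca (WT3, 14.8) and Cyp26a1 (WT5, 20.1).

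Fkbp5, the co-chaperone that is also a classical target (ENSMUSG00000024222, GRCm38 chr17:28399094-28517527, minus strand), was lower in every HSD17B1TG mouse than in any WT mouse. Its level was 0.997, 1.17, 1.56, 0.983 and 0.760 FPKM in TG1 to TG5. In WT1 to WT5 it was 4.39, 2.27, 5.04, 3.24 and 2.14 FPKM. The genotypes did not overlap, which held for 1 of the 8 tested genes and, in the lower direction, for 2.65% of all genes. The means were 1.09 ± 0.298 FPKM in HSD17B1TG and 3.41 ± 1.28 in WT (SD, n = 5 each), and the log2 fold change was -1.65 ± 0.28 (SE, edgeR adjusted p = 0.0199). Leaving out single mice kept the log2 fold change between -1.83 and -1.49. The adjusted p was then 0.0542 without TG2, 0.0531 without TG4 and 0.0530 without TG5, and below 0.05 in the other 7 cases. In the gene annotation 4 other genes overlap Fkbp5, 2 of them on the opposite strand, and the strand setting of the counting is not given in the sources used here, so their reads cannot be told apart.

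Fkbp4, the partner that promotes PGR activity (chr6:128429735-128438677), did not pass the test. Its level was 58.4, 107, 153, 69.3 and 102 FPKM in TG1 to TG5 and 124, 178, 126, 113 and 110 FPKM in WT1 to WT5. TG1, TG2, TG4 and TG5 were below every WT mouse, and TG3 was above 4 of the WT mice. The log2 fold change was -0.42 ± 0.26 (SE, edgeR adjusted p = 0.333), from means of 98.0 ± 37.1 and 130 ± 27.4 FPKM.

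The balance of the FKBP pair within a mouse does not depend on the depth of its library. Fkbp5 amounted to 1.71%, 1.09%, 1.02%, 1.42% and 0.742% of the Fkbp4 FPKM in TG1 to TG5. The shares in WT1 to WT5 were 3.52%, 1.28%, 4.01%, 2.87% and 1.94%. The genotypes overlapped only through WT2, the WT mouse with the most Fkbp4. On the log2 scale the mean ratio was -6.44 ± 0.46 in HSD17B1TG and -5.31 ± 0.67 in WT, a difference of -1.13 or 2.19-fold (two-sided exact permutation test over all assignments of the 10 mice, p = 0.0238, smallest possible 0.00794). With single mice left out, the difference stayed between -1.38 and -0.96 (exact permutation p from 0.00794 to 0.0476).

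**Figure D3:**
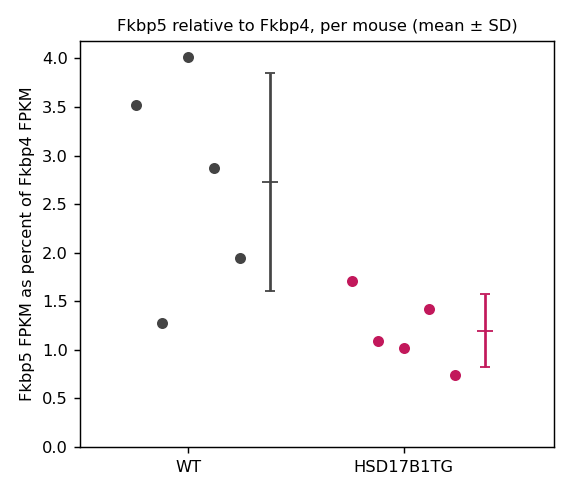
Fkbp5 FPKM as a percentage of Fkbp4 FPKM (y axis) in each mouse, with the mean ± SD (n = 5) beside the points. WT mice spread from 1.28% to 4.01% and HSD17B1TG mice from 0.742% to 1.71%.

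Other proteins of the same machinery were examined as lists. Among 16 HSP90 chaperones and co-chaperones, 0 passed all thresholds, 1 fell at any fold (Ppid, cyclophilin 40, log2 fold change -0.48, edgeR adjusted p = 0.0471) and the median log2 fold change was -0.14. At an unadjusted p-value under 0.05 there was 1 of 16, and DESeq2 and voom also called 0 past all thresholds. St13 and Stub1, the next by p-value, had log2 fold changes of -0.38 (adjusted p = 0.197) and 0.32 (adjusted p = 0.299). Of 13 other FKBP immunophilins tested, 3 fell past all thresholds, Fkbp9 (-1.12, edgeR adjusted p = 0.0402), Fkbp14 (-1.54, 0.0476) and Fkbp7 (-1.10, 0.0485), all of which encode proteins of the endoplasmic reticulum rather than receptor co-chaperones. Their median log2 fold change was -0.30. With 1 mouse left out, the adjusted p stayed below 0.05 in 2 of 10 fits for Fkbp9, Fkbp14 and Fkbp7 (without TG1 or WT4, highest values 0.0928, 0.101 and 0.112) and in 3 of 10 for Ppid (without TG1, TG3 or WT4, highest 0.114). With no filter on low counts it was 0.0709 for Ppid and 0.0505 for Fkbp7.

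Zbtb16, which encodes the zinc finger repressor PLZF (chr9:48654297-48836222), varied within both genotypes. Its level was 2.87, 2.39, 0.322, 0.822 and 0.231 FPKM in TG1 to TG5. In WT1 to WT5 it was 5.88, 0.568, 10.8, 2.81 and 6.17 FPKM. WT2 and WT4 lay within the HSD17B1TG range, and WT1, WT3 and WT5 lay above it. The means were 1.33 ± 1.22 and 5.24 ± 3.87 FPKM, and the log2 fold change of -1.98 ± 0.83 (SE) did not pass the adjustment in edgeR (adjusted p = 0.159).

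Tsc22d3, which encodes the leucine zipper protein GILZ (chrX:140539528-140600659), was 14.6, 10.04, 5.53, 12.8 and 9.81 FPKM in TG1 to TG5. The WT levels, from WT1 to WT5, were 11.1, 16.2, 39.7, 8.61 and 30.9 FPKM. WT1 and WT4 lay within the HSD17B1TG range, WT2 was just above it, and WT3 and WT5 were the highest. The log2 fold change was -1.02 ± 0.43 (SE, edgeR adjusted p = 0.161), from 10.6 ± 3.46 and 21.3 ± 13.5 FPKM. Without WT3 it was -0.69 (adjusted p = 0.347).

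The wider list of genes whose response elements PGR shares with the glucocorticoid receptor was split in direction. Of 23 tested, 12 were lower and 11 higher, and 0 passed all thresholds in edgeR, with 4 lower and 4 higher at an unadjusted p-value under 0.05. DESeq2 called 2 lower and 1 higher, voom 1 lower and 2 higher, and the median edgeR log2 fold change was -0.08. Per1, a clock gene, fell (-0.98, edgeR adjusted p = 0.0342) and Arrdc2 rose (0.86, adjusted p = 0.0443), both by less than 2-fold, and Nfkbia had a log2 fold change of 1.13 (adjusted p = 0.0529). Per1 and Arrdc2 each kept an adjusted p below 0.05 in 3 of 10 fits with 1 mouse left out (TG1, TG3 or WT4), with highest values of 0.0750 and 0.100. Arrdc2 also lost it with upper-quartile factors (0.0540) and with no filter on low counts (0.0652).

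Hdc, histidine decarboxylase, the enzyme that makes histamine (ENSMUSG00000027360, chr2:126593667-126619299), had the larger decrease of the genes that passed. Its level was 0.647, 1.53, 1.26, 0.582 and 3.15 FPKM in TG1 to TG5. In WT1 to WT5 it was 7.57, 17.9, 40.5, 1.39 and 13.1 FPKM. WT4 lay within the HSD17B1TG range, and the other WT mice were all above it, with a 29.2-fold spread within WT. The means were 1.43 ± 1.04 and 16.1 ± 14.95 FPKM, and the log2 fold change was -3.50 ± 0.80 (SE, edgeR adjusted p = 0.0354), 11.3-fold lower. The call held in 3 of 10 fits with 1 mouse left out (TG1, TG3 or WT4). The adjusted p was 0.0855 without TG2, 0.0751 without TG4, 0.0598 without TG5, 0.0523 without WT1, 0.0756 without WT2, 0.0740 without WT3 and 0.0747 without WT5. The log2 fold change was -2.83 without WT3, the mouse with the highest level.

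Mast cells and basophils also express Hdc, so their markers were set beside it. The summed FPKM of 8 mast cell markers ran from 8.32 to 40.8 in HSD17B1TG and from 5.52 to 59.2 in WT. WT3, with the highest Hdc, had the lowest mast cell sum (5.52) and no counts for 4 of the 8 markers. WT4, with the lowest Hdc of the WT mice, had the highest sum (59.2). Of 6 mast cell markers tested, 1 passed the thresholds, Kit, which was lower (log2 fold change -1.73), and the median of the list was 0.23. The sum of 3 basophil markers ran from 3.53 to 5.20 in HSD17B1TG and from 2.89 to 5.03 in WT.

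Genes that break down histamine changed in both directions. Aoc1, diamine oxidase, which degrades histamine outside cells, was 250, 1481, 537, 112 and 617 FPKM in TG1 to TG5. The WT levels were 10.9, 1.76, 0.533, 43.6 and 9.84 FPKM. Every HSD17B1TG mouse was above every WT mouse, and the log2 fold change was 5.50 ± 1.19 (SE, edgeR adjusted p = 0.0317). For Aoc1 the log2 fold change was 4.83 without TG2, 6.70 without WT4 and 7.08 in voom. WT3, with the highest Hdc, had the lowest Aoc1, and WT4, with the lowest Hdc in WT, had the highest Aoc1 in WT. Maob, a monoamine oxidase that acts on a histamine metabolite, fell (log2 fold change -5.26, adjusted p = 0.0234), from 4.74 to 172 FPKM in WT and from 0.591 to 2.49 in HSD17B1TG. Its log2 fold change was -4.13 without WT3 and -4.54 in voom. Aldh7a1, an aldehyde dehydrogenase, fell to 13.8 from 30.4 FPKM (-1.15, adjusted p = 0.0177), and 3 genes on the opposite strand overlap it. Of 7 genes tested in this list, 1 passed as higher and 2 as lower. Aoc1 kept an adjusted p below 0.05 in 3 of 10 fits with 1 mouse left out (TG1, TG3 or WT4), with a highest value of 0.0800, Maob in 5 (without TG1, TG3, WT1, WT3 or WT4, highest 0.0631) and Aldh7a1 in 8 (all but TG2 and TG5, highest 0.0522).

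**Figure D4:**
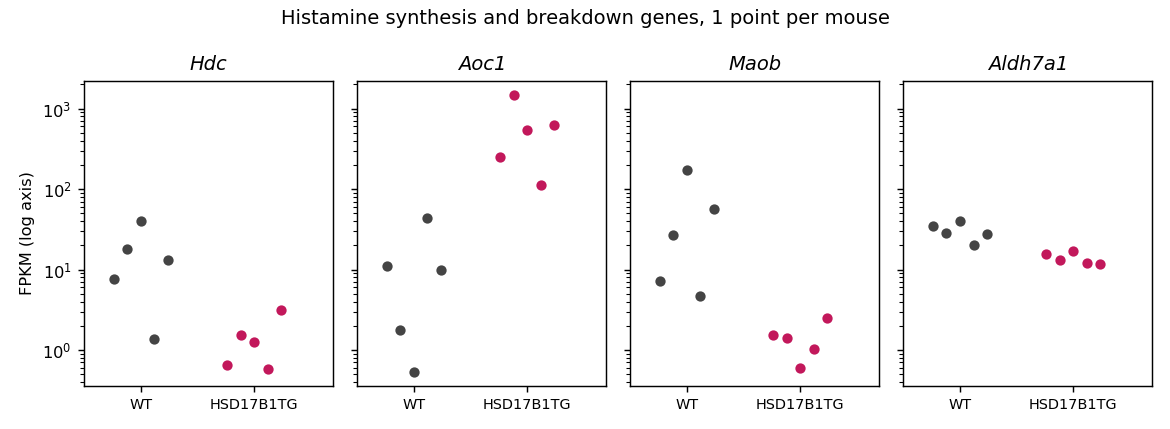
FPKM (y axis, log scale) of Hdc, which makes histamine, and of Aoc1, Maob and Aldh7a1, which act in its breakdown, in each mouse, drawn from mouse 1 to mouse 5 within each genotype. Hdc overlaps between the genotypes through WT4 (1.39), and the other genes do not overlap, with Aoc1 above and Maob and Aldh7a1 below WT in HSD17B1TG.

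Cyp26a1, the cytochrome P450 that clears retinoic acid (ENSMUSG00000024987, chr19:37697808-37701528), had the largest fold difference among the 8 in edgeR with all mice, but it rested on few mice. The log2 fold change of Hdc was larger in size without WT5 (-3.58 against -2.60) and in voom (-3.36 against -3.22). Its counts were 5, 6, 11, 2 and 0 in TG1 to TG5 and 14, 72, 35, 1 and 731 in WT1 to WT5. In FPKM this was at most 0.330 in HSD17B1TG, and 0.321, 2.14, 1.22, 0.027 and 20.1 in WT1 to WT5. WT5 stood far above the others, and WT4 lay below 4 of the HSD17B1TG mice. The log2 fold change was -4.95 ± 1.47 (SE) and did not pass in edgeR (adjusted p = 0.0661). It was -2.60 (adjusted p = 0.185) without WT5 and -3.22 (adjusted p = 0.231) in voom, and passed only without WT4 (-5.27, adjusted p = 0.0235) and in DESeq2 (adjusted p = 0.00671). In the list of retinoic acid synthesis, clearance and receptor genes, Rdh10 and Dhrs3, which act on retinol and retinal, had edgeR log2 fold changes of 1.34 (adjusted p = 0.0600) and 0.78 (adjusted p = 0.0642), and the median of the 15 genes tested was 0.16.

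Calca (chr7:114631478-114636357) had counts of 0, 5, 4, 0 and 4 in TG1 to TG5. The WT counts were 2, 3, 402, 5 and 32. WT3 and WT5 were above all HSD17B1TG mice, and the other WT mice were at the level of HSD17B1TG. A count of 3 corresponded to 0.202 CPM (counts scaled to the library total) at most, so the low values are at the limit of this depth, a limit that covers counting error only. On log2 CPM with a prior count of 2 the means differed by -2.09 (two-sided exact permutation test, p = 0.151), and by -0.91 without WT3 (p = 0.286). Fitted in edgeR with no filter on low counts, the log2 fold change of Calca was -5.12 (adjusted p = 0.100). In the calcitonin family, 0 of 6 ligand and receptor genes tested passed in edgeR, 2 were lower at an unadjusted p-value under 0.05, and DESeq2 called 2 and voom 0. Ramp2, Ramp1 and Calcrl, which form receptors for CGRP and adrenomedullin, had log2 fold changes of -1.14 (edgeR adjusted p = 0.0628), -1.53 (0.108) and -0.59 (0.238).

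Gata2 (chr6:88193891-88207032) had the smallest log2 fold change of the 8 genes. Its level was 28.2, 38.7, 40.8, 30.3 and 34.2 FPKM in TG1 to TG5 and 25.2, 45.0, 57.3, 27.4 and 29.9 FPKM in WT1 to WT5. The HSD17B1TG range lay inside the WT range, and the log2 fold change was -0.11 ± 0.24 (SE, edgeR adjusted p = 0.811), turning to 0.083 without WT3.

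Errfi1, or MIG-6 (chr4:150853919-150868892), was 35.2, 49.0, 28.1, 43.1 and 70.9 FPKM in TG1 to TG5 and 79.2, 22.3, 45.6, 66.2 and 114 FPKM in WT1 to WT5. WT1 and WT5 were above all HSD17B1TG mice and WT2 was below all of them. The log2 fold change was -0.53 ± 0.39 (SE, edgeR adjusted p = 0.422), and a gene on the opposite strand overlaps it. Among 12 ERBB receptor, ligand and inhibitor genes tested, 2 rose, Erbb2 (log2 fold change 1.09, adjusted p = 0.0388) and Lrig1 (3.99-fold, adjusted p = 0.0445), and 0 fell, with 5 higher and 2 lower at an unadjusted p-value under 0.05. DESeq2 called 3 higher and 1 lower, and voom 4 and 0. The calls of Erbb2 and Lrig1 held in 2 of 10 fits with 1 mouse left out (TG1 or WT4), with highest adjusted p-values of 0.0974 and 0.111, and Lrig1 was at 0.0501 with no filter on low counts. With upper-quartile factors the log2 fold change of Erbb2 was 0.995, under the 2-fold threshold. Lrig1, like Errfi1, encodes an inhibitor of ERBB receptors. The neuregulin gene Nrg1 had a log2 fold change of -1.71 (adjusted p = 0.0586).

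The genes did not share 1 pattern across mice. WT3 was the highest WT mouse for 6 of the 9 genes and WT5 for 2, and WT4 was the lowest WT mouse for 3. Over the 8 tested genes, the mean deviation from the mean of all 10 mice in log2 CPM was 1.45 in WT3, 1.46 in WT5, 0.49 in WT1 and 0.46 in WT2. It was -0.35 in WT4 and ranged from -0.92 to -0.30 in HSD17B1TG, so WT4 lay within the HSD17B1TG range. The spread in WT, as SD of log2 CPM, was largest for Cyp26a1 (2.94) and Calca (2.92), followed by Hdc (1.82) and Zbtb16 (1.63), and smallest for Fkbp4 (0.28). In HSD17B1TG it was 1.03 for Cyp26a1, 0.96 for Calca, 0.98 for Hdc and 1.60 for Zbtb16.

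**Figure D5:**
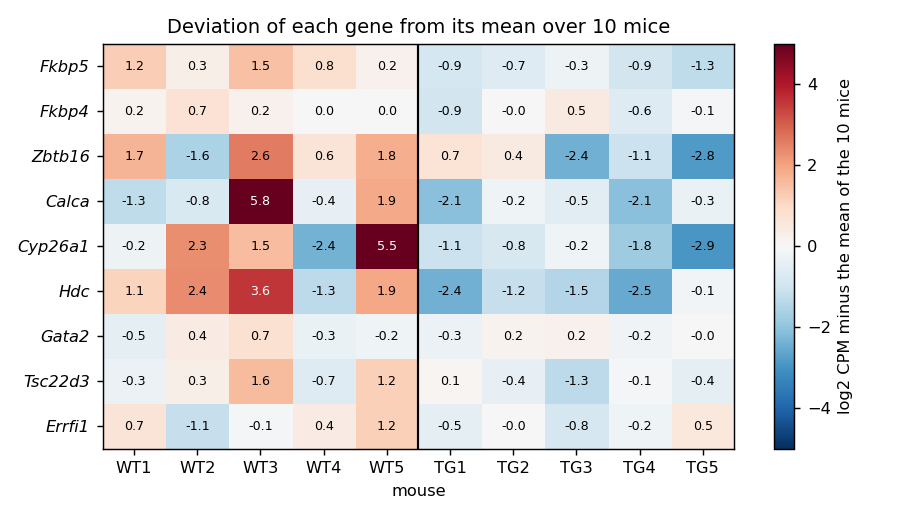
Heat map of log2 CPM of each gene minus its mean over the 10 mice (colour and printed value, colour scale ending at -5 and 5), with WT mice left and HSD17B1TG mice right of the line. Fkbp5 is above its mean in every WT mouse and below it in every HSD17B1TG mouse, and the highest values are those of Calca in WT3 and Cyp26a1 in WT5.

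With the mean of each genotype taken out, the 28 pairs of tested genes had Pearson correlations of log2 CPM from -0.62 (Fkbp4 and Zbtb16) to 0.73 (Hdc and Gata2, Spearman 0.71) over 10 mice, with a median of 0.14. These mice share a tissue and each value shares its library, so the correlations are descriptions. The closest genes named below are the highest among all 16993 genes tested, so high values can arise from the search alone. The genes most like Tsc22d3 in this measure were Kbtbd11 (0.98), Serpina3n (0.97) and Rgs5 (0.97). Those most like Hdc were Adgrl2 (0.96), Ddx28 (0.95) and Btbd2 (0.95), and those most like Zbtb16 were Sirt4 (0.98), Gm30339 (0.95) and Pde4b (0.93). For Fkbp5 the closest were Gm7729 (0.91), H3f3a (0.90) and Gm4202 (0.88). For Fkbp4, Cyp26a1, Gata2 and Errfi1 the closest were Prps1l3 (0.98), Mamdc4 (0.95), Zmpste24 (0.96) and Mtpap (0.96).

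The receptor itself was not among the genes that passed. Pgr was 58.5, 30.9, 27.5, 17.9 and 14.3 FPKM in TG1 to TG5 and 57.1, 68.0, 21.5, 55.3 and 39.2 FPKM in WT1 to WT5. WT3, where 6 of the 9 genes were highest in WT, had the lowest Pgr of the WT mice. The log2 fold change was -0.70 ± 0.40 (SE, edgeR adjusted p = 0.298). Among 20 nuclear receptor and coregulator genes tested, 1 rose past all thresholds, Nr3c2, the mineralocorticoid receptor, to 1.25 from 0.339 FPKM (log2 fold change 1.88, adjusted p = 0.0227). Ncoa1, the coactivator SRC-1, fell by less than 2-fold (-0.52, adjusted p = 0.0368), and the coactivator gene Ncoa3 had a log2 fold change of 0.42 (adjusted p = 0.0797). The call of Nr3c2 was lost without TG2, TG4, TG5, WT1 or WT2 (highest adjusted p 0.0604). Ncoa1 kept an adjusted p below 0.05 only without TG1, TG3 or WT4 among these fits (highest 0.0855), and was at 0.0525 with no filter on low counts.

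Other uterine genes that depend on PGR were examined as a further list. The list was chosen with earlier results of these data known. Of 21 tested, 12 fell past all thresholds in edgeR and 0 rose, against 2.08% of all genes lower and 2.16% higher. At an unadjusted p-value under 0.05, 15 were lower and 3 higher, and the median log2 fold change was -2.05. DESeq2 called 13 lower and 3 higher, and voom 11 lower and 3 higher. Il13ra2, a decoy receptor for IL-13, was at most 0.197 FPKM in HSD17B1TG and at least 2.61 in WT (log2 fold change -7.09, edgeR adjusted p = 0.0149). Hand2, the stromal transcription factor that restrains epithelial growth, fell to 5.60 from 22.2 FPKM (3.99-fold, edgeR adjusted p = 0.0177) and Msx1 to 7.31 from 53.5 FPKM (7.37-fold, adjusted p = 0.0207). With 1 mouse left out, Il13ra2 kept its call in 10 of 10 fits, at log2 fold changes of -8.45 without TG5 and -6.37 without WT3 (its counts were 0 to 7 in HSD17B1TG), Hand2 in 9 (0.0514 without TG5) and Msx1 in 6 (lost without TG2, TG4, TG5 or WT2, highest 0.0561). Among the others that fell were Ihh and its pathway genes Ptch1 and Gli1, and Hoxa10, Hoxa11, Acod1, Lrp2 and Fst. Alox15, Muc1, Lif, Wnt4 and Msx2 had log2 fold changes above 0, and none of them passed in edgeR. The count of 12 was 2 without TG2, 2 without TG4, 1 without TG5, 7 without WT1, 2 without WT2, 4 without WT3, 3 without WT5, 9 without TG3 and 14 without WT4. In the same fits and order, 60, 66, 27, 145, 57, 81, 63, 528 and 651 of all genes were called lower, against 354 with all mice.

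Markers of cell types differed between the uteri. Of 8 stromal markers, 2 fell in edgeR (Pdgfra and Col3a1, median of the list -0.94), 4 were lower at an unadjusted p-value under 0.05, and DESeq2 and voom each called 4 lower, with summed levels of 584 to 2278 FPKM in HSD17B1TG and 1866 to 2353 in WT. TG1 had the 2278 FPKM, within the WT range. It also had the lowest epithelial sum of the HSD17B1TG mice (741) and the highest smooth muscle sum of all mice (7350). Its Fkbp5 of 0.997 and Hdc of 0.647 FPKM were below those of every WT mouse. Fkbp5 was so in each HSD17B1TG mouse, and Hdc in 3 of them. All 9 epithelial markers had log2 fold changes above 0 (median 1.24), with 6 at an unadjusted p-value under 0.05 and 0 past the thresholds in edgeR (2 in DESeq2, 6 in voom), and sums of 741 to 3467 against 519 to 1800 FPKM. Endothelial markers summed to 33.4 to 126 FPKM in HSD17B1TG and 59.5 to 129 in WT, and smooth muscle markers to 867 to 7350 and 407 to 5776. Neutrophil markers summed to 7.27 to 12.6 FPKM in HSD17B1TG and 0.601 to 4.32 in WT, and macrophage markers to 169 to 292 and 140 to 218. Eosinophil markers stayed under 0.730 FPKM in sum in every mouse, ovary and oviduct markers ran from 10.2 to 20.5 in HSD17B1TG and from 8.75 to 14.98 in WT, and sensory neuron markers, which bear on Calca, from 1.05 to 20.4 and from 1.35 to 8.46. The part of these shifts in the values of the genes above was not tested.

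Total counts lay between 16544864 and 19451715 in HSD17B1TG and between 14817228 and 23271988 in WT. Mitochondrial genes took 1.94% to 7.57% of the counts in HSD17B1TG and 2.58% to 3.37% in WT, and the 10 most abundant genes 6.97% to 12.5% and 5.18% to 6.15%. The transgene is human, so mouse Hsd17b1 (0.992 ± 0.291 FPKM in HSD17B1TG and 0.918 ± 0.375 in WT) does not check the labels.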

How the data were processed

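Per the methods and processing notes, libraries were read on a NovaSeq as 150 bp pairs and aligned by HISAT2 2.0.5 against Ensembl release 94 (GRCm38). Which program counted reads, and whether by strand, is not given in the sources used here. The authors deposited a raw count per gene and mouse, a signal that is the count divided by a DESeq2 size factor, and FPKM. The deposited log2 fold changes and p-values of the authors' own comparison, and their enrichment tables, were not used.

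Genotypes were taken from the labels, and mice were numbered in accession order. Raw counts of all genes were tested with edgeR 4.0.16 (R 4.3.3, filterByExpr with a minimum count of 10, TMM, quasi-likelihood test, two-sided), with Benjamini-Hochberg adjustment over 16993 genes. No batch is named in the labels, so none was modelled. Exact permutation tests ran over all assignments of the 10 mice. The alternatives were DESeq2 1.42.0, voom with quality weights in limma 3.58.1, other size factors and filters, and each mouse left out. The scripts were tested on simulated data.

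The genes and lists were chosen with earlier results of these data known. The genes named were the 10 listed, Pgr, mouse Hsd17b1, from each list the 3 with the smallest p, and for each tested gene the 3 with the highest correlation; further lower PGR-dependent genes and those of that list that were higher, the stromal markers that fell, and Kit were named after their values were seen. Some genes that this rule picks are not reported here. The p-values measure the spread between mice.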

Additional observations from a re-analysis of the deposited data

Results flagged for a closer look

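In 3 of 18 groups of 5 mice, 1 mouse stood apart from the others by Dixon's test on FPKM (critical value 0.71). Chance alone flags about 1 in 20 groups where values are normally distributed. Values with a long upper tail, as FPKM can have, are flagged more often. Calca was 14.8 FPKM in WT3 and 0.928 in the next WT mouse. Cyp26a1 was 20.1 FPKM in WT5 and 2.14 in the next. Fkbp4 was 178 FPKM in WT2 and 126 in the next. The causes were not tested.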

How the results depend on the processing

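Every log2 fold change of the 8 tested genes kept its direction under every alternative run, except Gata2, which ranged from -0.24 to 0.083 with single mice left out and was above 0 only without WT3. The count of genes past all thresholds, and the count with an adjusted p below 0.05, ranged from 0 to 3 with single mice left out, and the count of other PGR-dependent genes that fell from 1 to 14 (an alternative added after the data were seen). DESeq2 gave 3 genes and voom, other size factors and other filters gave 2. Over all genes, 367 were higher and 354 lower in edgeR, 906 and 666 in DESeq2, 1083 and 665 in voom, and from 38 to 888 and from 27 to 651 with single mice left out. The median log2 fold change of the 8 genes stayed between -1.45 and -1.09. Cyp26a1 had no value under the filter of over 1 CPM in 5 mice, and the median of the other 7 genes was then -1.04. Depth limits Calca and Cyp26a1, with 0 to 11 counts in HSD17B1TG. No paired analysis was possible because the labels give no replicate numbers shared between the genotypes.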
